A study of Bos taurus and Cervus elaphus with 24 samples.

Results

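The genes described here encode the MCM helicase and the proteins that load it on replication origins and switch it on. They were chosen by name, as MCM2, MCM3, MCM4, MCM5, MCM6, MCM7, ORC1, ORC5, CDC6 and CDC45. Of these 10 genes, 9 had a probe under their name on the array. They hold 22 of its 43653 probes, among 15650 gene names in all. The choice was made with it known that in lactating deer MCM4 had read higher and ORC5 lower. The deer comparison of lactation with the dry period is therefore described and not tested.

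Total RNA of blood cells was hybridised to 24 bovine 2-colour oligonucleotide arrays, in 6 groups of 4. The groups are deer (Cervus elaphus) at peak lactation and in the dry period, Holstein-Friesian cattle (HF) at peak lactation and in the dry period, and Polish Red cattle (PR) at peak lactation and in the dry period. The same 4 animals of each kind gave blood in both states, and the labels name no allele, agent or age. Cy5 carried the animal's RNA and Cy3 a reference from 20 other cattle on all arrays, with no dye swap. Each value below is the log2 ratio of the animal to that reference, and in deer it is read through probes designed for cattle.

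MCM2 to MCM7 form the ring-shaped helicase that unwinds DNA at the replication fork. In G1 phase the origin recognition complex, which includes ORC1 and ORC5, loads this ring on DNA together with CDC6, and CDC45 joins it when an origin fires. Many of these genes are transcribed mainly in cells that are preparing to divide, which most circulating leukocytes are not.

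The labelled cell type was set against marker genes. All 12 leukocyte identity genes were above background in each group, as were all 7 neutrophil genes, and 8 or 9 of 10 erythroid precursor genes were too. Some arrays stood apart. The dry-period array of PR animal 1 had a median Cy5 intensity of 2038, against 109 to 255 on the other arrays, and the arrays of HF animals 2 and 3 had spike-in correlations of 0.17 to 0.40. The lactation arrays of deer 2 and 4 had a narrower spread of log2 ratios, with SDs of 0.52 and 0.66, where the remaining deer arrays had 0.80 to 0.85. Deer and cattle shared no slide, so species and slide cannot be told apart, and HF and PR shared 1 slide. Among the deer arrays only 1 slide held both states, so elsewhere in deer state and slide cannot be told apart. In blood RNA, fewer cells of a type and less RNA per cell cannot be told apart, and the p-values below measure the spread between these animals. In each limma test the spread of a probe was estimated over all groups together, deer included, also where only cattle are compared.

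The sequences of 6 probes are shown because the results turn on how probes of 1 gene differ. Positions are on the UMD 3.1 cattle assembly as the files give them, and exon annotation of that build was not used here. Of the 22 probes, 8 have 60 bases that span more than 60 bases of the genome, as a probe across an exon junction does. Each sequence runs 5′ to 3′ along the transcript. Capitals mark the codons of the arginine finger motif in the MCM4 probe A_73_P072841, a motif that acts in ATP hydrolysis between neighbouring subunits, and the codons of the MCM signature motif in the MCM5 probe. Both were found by translating the probes.
MCM4 A_73_P072841, chr14:21190387-21190446, plus strand: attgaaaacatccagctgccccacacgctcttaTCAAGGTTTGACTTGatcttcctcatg
MCM4 A_73_P039921, chr14:21191388-21192104, plus strand: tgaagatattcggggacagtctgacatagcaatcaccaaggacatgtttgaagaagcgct
MCM5 A_73_P264501, chr5:74001438-74001821, plus strand: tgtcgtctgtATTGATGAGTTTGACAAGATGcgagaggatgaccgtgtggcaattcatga
ORC5 A_73_P503093, chr4:45652650-45652796, minus strand: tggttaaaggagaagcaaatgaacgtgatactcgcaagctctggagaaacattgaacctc
ORC5 A_73_P193452, chr4:45594976-45603261, minus strand: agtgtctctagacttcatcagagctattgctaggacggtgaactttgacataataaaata
CDC45 A_73_P038351, chr17:74739634-74740266, plus strand: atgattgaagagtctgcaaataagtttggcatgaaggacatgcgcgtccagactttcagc
The other 3 MCM4 probes overlap near the end of the transcript, at chr14:21192547-21192606 (A_73_118793), chr14:21192558-21192617 (A_73_P419311) and chr14:21192583-21192642 (A_73_P430131). All 3 hold the 24 bases ctaatgtgtaaagcttcttcctca. A_73_P430131 alone reaches the last 25 bases, agtaagtaatacttggttatctggc.

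In lactating deer MCM4 read higher at 3 of its 5 probes with no overlap between the states, while the 3 ORC5 probes went different ways. MCM4 is one of the 6 subunits of the helicase ring. Its brightest probe, A_73_118793, gave -0.41, 0.04, -0.28 and 0.09 in lactation, against -1.06, -0.77, -0.51 and -0.97 in the dry period, in deer 1 to 4. Each deer was higher in lactation and the means differed by 0.69. A_73_P419311, which shares 49 bases with it, gave -0.85, -0.27, -0.67 and -0.28 in lactation, against -1.35, -1.13, -0.97 and -1.37 in the dry period, a difference of 0.69. A_73_P039921, upstream of both, gave -0.27, 0.03, -0.09 and 0.10 in lactation, against -0.67, -0.36, -0.42 and -0.72 in the dry period, a difference of 0.48. At these 3 probes every lactation value lay above every dry value.

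The remaining MCM4 probes did not keep that order. The arginine finger probe, A_73_P072841, gave -0.53, -0.59, -1.31 and -0.36 in lactation, against -1.14, -1.18, -0.60 and -1.07 in the dry period. Deer 1, 2 and 4 were higher in lactation and deer 3 was lower, with a difference of means of 0.30. Its log2 Cy5 signal alone was 8.26, 8.21, 8.16 and 8.41 in lactation, against 8.31, 8.29, 8.16 and 8.25 in the dry period. There the reference was 7.85 to 7.97 on 1 slide (deer 1 and 4 in lactation, deer 3 dry). It was 8.37 to 8.50 on the other deer arrays. A_73_P430131 gave -3.93, -1.67, -3.94 and -2.86 in lactation, against -3.88, -3.76, -3.85 and -3.82 in the dry period. Deer 2 and 4 in lactation alone stood away from the other values there, and theirs are the arrays on which ratios spread less. The probe was well above background on 2 of 8 deer arrays, and its difference was 0.73 after loess but -0.72 by Agilent's log ratio.

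ORC5 encodes a subunit of the origin recognition complex. Its brightest probe, A_73_P503093, gave 1.20, 0.58, 0.90 and 0.51 in lactation, against 1.35, 0.91, 1.58 and 1.88 in the dry period. All 4 deer were lower in lactation, the ranges overlapped and the means differed by -0.63. A_73_100642, at chr4:45594261-45594320, gave 0.70, 0.21, 0.59 and 0.44 in lactation, against 0.14, 0.20, 0.47 and 0.01 in the dry period. All 4 deer were higher in lactation there, by 0.28 in the mean, with overlapping ranges. A_73_P193452 gave 0.72, 0.19, 0.88 and 0.23 in lactation, against 0.61, 0.55, 0.83 and 0.73 in the dry period, with 2 deer higher and 2 lower. By log2 ratio ORC5 thus read lower in lactation in all animals at 1 of 3 probes, and higher in all animals at another. From Cy5 alone, deer 2 was higher in lactation at A_73_P503093 (9.56 against 9.32), and all 4 deer were higher at A_73_100642.

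**Figure D1:**
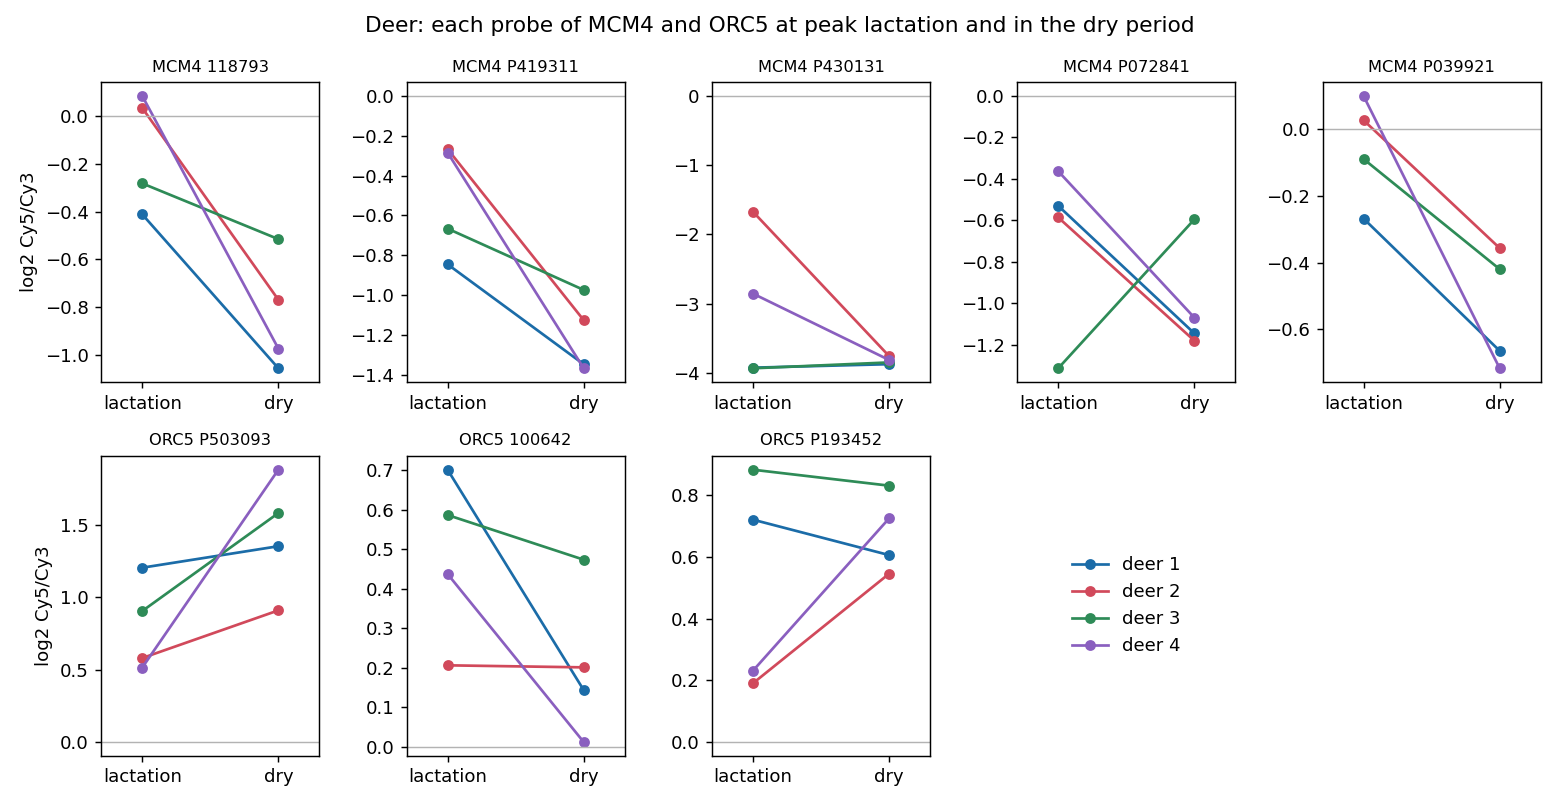
Log2 Cy5/Cy3 of each MCM4 probe (top) and ORC5 probe (bottom) in deer, with peak lactation on the left, the dry period on the right and a line for each animal; each panel has its own vertical axis. All 4 lines are higher in lactation at 3 MCM4 probes (the outer panels and the one right of the leftmost) and at the middle ORC5 probe, and all 4 are lower in lactation at the leftmost ORC5 probe.

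The authors' deposited table of deer probes lists 4 MCM4 probes and 1 ORC5 probe among its 576. The ORC5 probe in the authors' deposited table is A_73_100642, with log2 values of 1.05, 0.89, 0.88 and 1.06 in lactation, against 0.29, 0.52, 0.82 and 0.27 in the dry period. It is the ORC5 probe that reads higher in lactation, not the brightest one. In the authors' deposited table MCM4 A_73_118793 has -0.11, 0.25, 0.02 and 0.35 in lactation, against -0.73, -0.47, -0.20 and -0.72 in the dry period. MCM4 A_73_P430131 is lower in lactation in the authors' deposited table, at -7.53, -6.50, -6.50 and -7.23, against -6.10, -6.48, -6.02 and -6.27 in the dry period. The authors' deposited tables of 437 probes in HF and 158 in PR list 0 member probes.

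The deer differences were recomputed with other processing and on fewer arrays. MCM4 A_73_118793 kept all lactation values above all dry values in each setting, with differences of 0.66 by Agilent's log ratio, 0.60 after median centring, 0.52 from Cy5 alone and 0.42 when the arrays were scaled to a common spread. Within the 1 slide that held both states (deer 1 and 4 in lactation, deer 3 dry) the MCM4 difference was 0.35, and without the lactation arrays of deer 2 and 4 it was 0.48. MCM4 A_73_P039921 differed by 0.40 after median centring, where its states overlapped. ORC5 A_73_P503093 differed by -0.72 within that slide and by -0.38 without those arrays. With arrays scaled to a common spread it differed by only -0.11, while ORC5 A_73_100642 differed by 0.28. The reference channel alone differed between the states by -0.11 at MCM4 A_73_118793 and by 0.06 at ORC5 A_73_P503093.

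**Figure D2:**
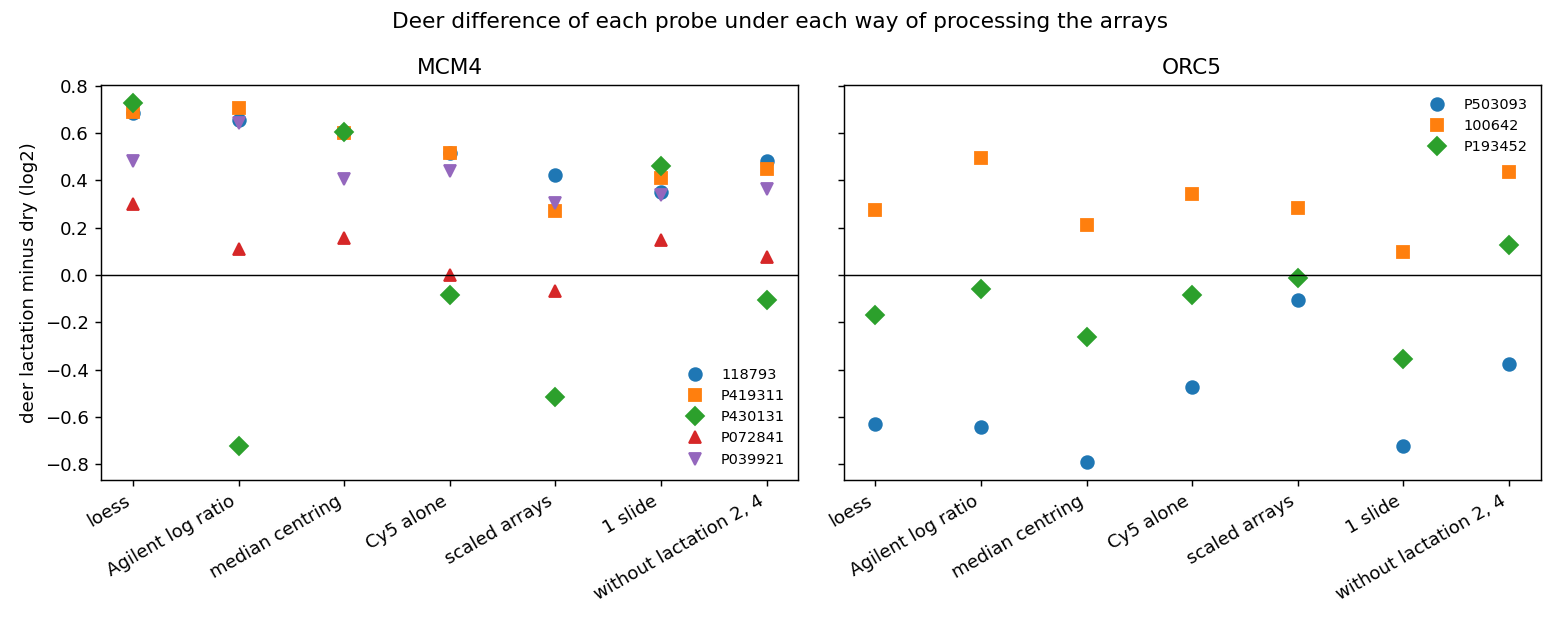
Deer lactation minus dry (log2, vertical axis) at each MCM4 probe (left) and ORC5 probe (right) under 7 ways of processing or choosing the arrays. 3 MCM4 probes stay above 0 throughout and MCM4 P430131 falls on both sides of 0, while 1 ORC5 probe (squares) stays above 0 and ORC5 P503093 below it.

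Among the other helicase genes, MCM7 at A_73_P040461 gave 0.04, 0.25, 0.14 and 0.19 in lactating deer, against -0.32, -0.25, 0.13 and -0.43 in dry deer. MCM5 at A_73_102347 gave -0.12, 0.40, -0.07 and 0.02 in lactating deer, against -0.19, -0.05, -0.38 and -0.52 in dry deer. Both were higher in lactation in all 4 deer, by 0.37 and 0.34, with overlapping states. MCM6 differed by 0.19 and MCM5 at its signature motif probe A_73_P264501 by -0.01. MCM3 at A_73_P399416 gave 0.04, 0.06, 0.03 and 0.06 in lactating deer, against 0.01, -0.16, -0.14 and -0.01 in dry deer, a difference of 0.12 without overlap that was -0.01 by Agilent's log ratio. The brightest MCM3 probe, A_73_105887, was well above background on 1 of 8 deer arrays.

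Of the genes that load or start the helicase, ORC1 gave -0.24, 0.08, -0.35 and -0.09 in lactating deer, against -0.30, -0.26, -0.42 and -0.35 in dry deer. All 4 deer were higher in lactation, by 0.18, with overlapping states. CDC6 differed by 0.10. CDC45 at A_73_116011 gave -2.55, -1.41, -2.63 and -2.25 in lactating deer, against -2.75, -2.74, -2.78 and -2.67 in dry deer. That CDC45 difference was 0.52 without overlap, but it was 0.05 by Agilent's log ratio and -0.47 with arrays scaled to a common spread. The other CDC45 probe differed by -0.02.

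In all, 19 of the 22 member probes passed the filter on dim probes in deer, and 15 of these 19 had a higher mean in lactation, with a median difference of 0.19. Over all 33391 probes tested, 52.4% had a higher mean and the median was 0.01. Lactation lay above dry without overlap at 5 of the 19, where the background was 2.31%, and below it at 0, where the background was 2.07%. The members were chosen on this comparison, so nothing is read from these counts. Without the lactation arrays of deer 2 and 4, an alternative chosen after the data were seen, 17 of 19 were higher, with a median of 0.11.

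Other genes of DNA replication were set beside the members. Of 35 replication fork and nucleotide genes measured in deer, 32 had a higher mean in lactation, with a median difference of 0.29. PCNA, the sliding clamp of DNA polymerases, had a difference of 0.59, RRM2, a subunit of ribonucleotide reductase, 0.84, and TYMS, the enzyme that makes thymidylate, 0.80. The count was 13 of 14 for mitosis markers (median 0.39), 17 of 21 for other origin licensing and firing genes (median 0.23) and 10 of 17 for G1/S regulators (median 0.08). Without the lactation arrays of deer 2 and 4 the counts were 28 of 35 fork genes, 14 of 14 mitosis markers, 14 of 21 origin genes and 12 of 17 G1/S regulators, against 49.2% of all probes. No probe was named MKI67.

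Marker genes of other blood cells also differed between the states. The mean of the 7 neutrophil genes lay between -0.81 and 0.28 on lactating deer arrays and between 0.09 and 1.02 on dry deer arrays, with 1 of 7 higher in lactation. In cattle the order was opposite, at -0.30 to 1.05 in lactating HF and -1.19 to -0.38 in dry HF, and at -0.50 to 0.25 in lactating PR and -1.69 to -0.59 in dry PR. The mean of the 10 erythroid precursor genes lay between -1.12 and -0.65 in lactating deer and between -0.73 and 0.01 in dry deer. Of the 8 measured in deer 1 was higher in lactation, with a median difference of -0.07 and a lowest of -3.02. The mean of the 8 T cell genes lay between -0.04 and 0.15 in lactating deer and between -0.09 and 0.21 in dry deer. The part of these shifts in the member values was not tested.

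In cattle no member probe passed the test between lactation and the dry period. The test was limma's linear model over all 24 arrays, with Benjamini-Hochberg adjustment over all probes tested and a threshold of 0.05. It called 0 of 21 member probes in HF (background 0.00906%), 0 of 21 in PR (background 0%) and 0 of 21 for the mean of both breeds (background 0.00299%). At an unadjusted p under 0.05 limma gave 0 of 21 in HF (background 8.11%), 1 of 21 in PR (background 6.04%) and 0 of 21 for both (background 9.59%). Tukey's comparison after analysis of variance, the kind of test the authors used, gave 0 in HF (background 1.09%) and 0 in PR (background 0.399%). Its p-values were not adjusted across probes.

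MCM4 passed the test in neither breed. MCM4 A_73_118793 gave 0.16, -0.20, 0.34 and -0.04 in lactating HF, against 0.29, 0.14, 0.06 and 0.09 in dry HF. It gave -0.31, -0.22, -0.10 and -0.25 in lactating PR, against -0.61, -0.28, -0.20 and -0.56 in dry PR. HF animals were higher in lactation in 1 of 4 and PR animals in 4 of 4, with overlapping states in both breeds. The mean difference of both breeds was 0.06, with a 95% interval of -0.14 to 0.26. The 1 probe with an unadjusted p under 0.05 in PR was MCM4 A_73_P419311, with a difference of 0.47 and a limma adjusted p of 0.797. The dry array of PR animal 1 was the lowest of the 4 there, and without it the difference was 0.18.

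After loess, ORC5 at A_73_P503093 was higher in lactation in 8 of 8 cattle, but did not pass the test. It gave -0.03, -0.09, -0.08 and -0.02 in lactating HF, against -0.07, -0.13, -0.23 and -0.42 in dry HF. It gave 0.26, 0.21, 0.39 and 0.17 in lactating PR, against 0.16, -0.24, 0.13 and 0.14 in dry PR. The states overlapped in HF and not in PR. From Cy5 alone some animals were lower in lactation. These were HF animal 2 (7.84 against 7.90), HF animal 3 (7.58 against 7.79) and PR animal 1 (8.01 against 9.35). In PR 2 of 21 member probes were higher in lactation without overlap (background 0.96%), ORC5 A_73_P503093 and MCM4 A_73_P430131, and 1 of 21 was lower (background 1.22%), ORC1. For ORC5 the mean difference of both breeds was 0.18 (95% interval -0.05 to 0.42, limma adjusted p 0.639). Under the alternatives run that difference lay between -0.06 and 0.42. The other ORC5 probes were higher in lactation in 4 of 8 cattle (A_73_100642, difference 0.02) and in 3 of 8 (A_73_P193452, difference -0.07).

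The other members showed smaller differences than ORC5 over both breeds at their brightest probes. MCM5 differed by 0.09 (95% interval -0.17 to 0.34), MCM7 by 0.08 (-0.21 to 0.37), MCM6 by 0.01 (-0.14 to 0.17) and MCM3 by 0.01 (-0.42 to 0.44). At the MCM3 probe the SD was 0.99 on lactating deer arrays and 0.09 to 0.28 in the cattle groups. Its interval therefore also carries the deer spread. ORC1 differed by 0.00 (-0.13 to 0.14), CDC6 by -0.02 (-0.15 to 0.11) and CDC45 by -0.10 (-0.39 to 0.20). The median of the 9 genes was 0.01, against 0.01 over all probes tested. The dry array of PR animal 1 also set the size of the MCM5 and MCM7 differences. MCM7 gave -1.23 on its dry array and -0.08 to 0.18 on the other PR dry arrays, and the PR differences of 0.35 for MCM7 and 0.30 for MCM5 were 0.03 and 0.07 without that array. Over both breeds, MCM7 was -0.08 and MCM5 -0.03 without it.

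**Figure D3:**
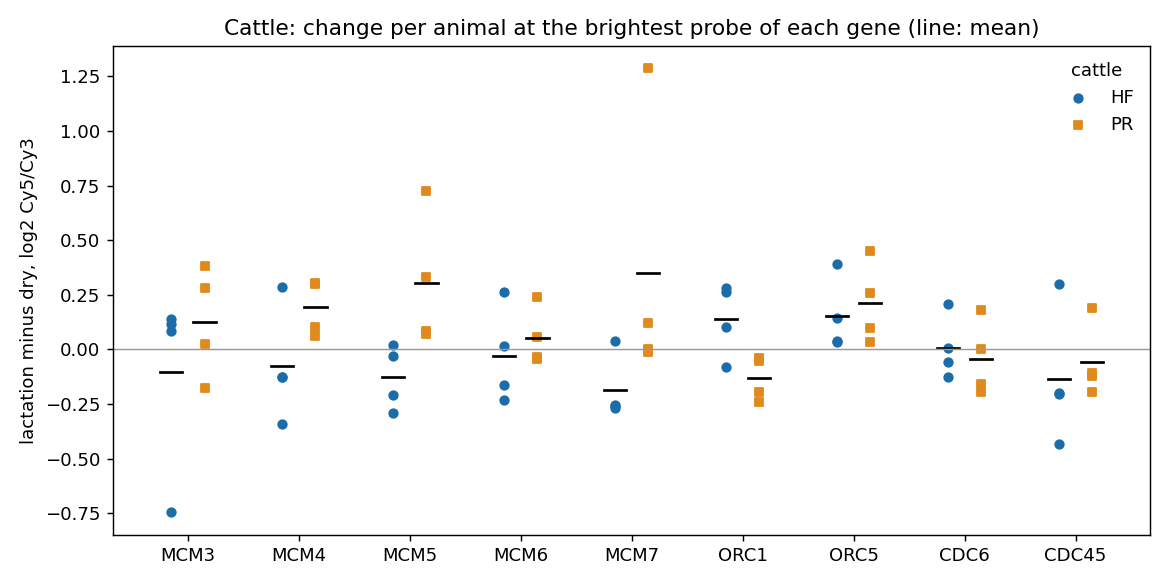
Lactation minus dry (log2) of each animal at the brightest probe of each gene, with HF as circles, PR as squares and a line at each mean. After loess ORC5 lies above 0 in all 8 cattle, and the highest PR point of MCM7 is animal 1.

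The effects of state in HF and in PR were compared directly. The difference of effects was called at 0 of 21 member probes by limma (background 0%), and 1 had an unadjusted p under 0.05 (background 3.23%). That probe was ORC1 A_73_107424, which was lower in lactation in 4 of 4 PR animals and higher in 3 of 4 HF animals. Its effect was larger in HF than in PR by 0.27, with a limma adjusted p of 0.997. Tukey's comparison does not define this contrast.

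The other replication genes gave no call in cattle either. Over both breeds limma called 0 of 33 fork and nucleotide genes (median 0.05), 0 of 20 other origin genes (median 0.02), 0 of 17 G1/S regulators (median 0.04) and 0 of 14 mitosis markers (median 0.03). At an unadjusted p under 0.05 the numbers were 2 fork and nucleotide genes, 1 other origin gene, 0 G1/S regulators and 0 mitosis markers. PCNA differed by 0.13 (limma adjusted p 0.796), RRM2 by 0.16 (limma adjusted p 0.830) and TYMS by 0.06 (limma adjusted p 0.939).

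Between deer and cattle, probes of the same gene gave different answers. The comparison used the mean of both arrays of each animal, 4 deer and 8 cattle, and limma called 15 of 21 member probes, near the background of 61.5%. Of these, 7 were higher in deer (background 29.1%) and 8 lower (background 32.5%). Of the 8 lower, MCM3 A_73_105887 and MCM4 A_73_P430131 passed the filter on dim probes through cattle alone and are given below as bounds. Over the probes measured in both deer and cattle, an alternative chosen after the data were seen, 13 member probes were called, 7 higher and 6 lower, against 62.8% of all 31438 such probes.

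CDC45 was split between its probes. A_73_116011, at chr17:74746970-74747029, averaged -2.47 ± 0.29 in deer and -0.23 ± 0.31 in cattle (SD, n = 4 and 8, limma adjusted p 3.49e-08). A_73_P038351 averaged 0.19 ± 0.06 in deer and -0.08 ± 0.16 in cattle (limma adjusted p 0.00266). Both CDC45 calls kept their directions by Agilent's log ratio, after median centring, from Cy5 alone and with scaled arrays. No direction of CDC45 in deer relative to cattle can be given from probes that disagree. The match of deer transcripts to the probes was not analysed here.

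MCM3 at A_73_P185607 averaged 0.35 ± 0.12 in deer and -0.06 ± 0.11 in cattle, which is higher in deer (limma adjusted p 2.13e-05). A_73_P399416 did not pass, with -0.01 ± 0.04 in deer and -0.07 ± 0.07 in cattle. The brightest MCM3 probe, A_73_105887, was not well above background on any dry deer array and on 1 of 4 lactating ones. In Cy5 signal there, dry HF was at least 9.21-fold and dry PR at least 4.64-fold higher than dry deer.

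MCM4 averaged lower in deer after loess at the 4 probes measured in deer, by amounts that differed widely. The differences were -0.38 ± 0.08 (SE) at A_73_118793 and -0.73 ± 0.13 at A_73_P419311, although these probes share 49 bases. At the arginine finger probe A_73_P072841 the difference was -1.06 ± 0.10 and at A_73_P039921 it was -0.20 ± 0.08. The brightest probe passed the test after loess (limma adjusted p 0.00193) but not by Agilent's log ratio (-0.21), after median centring (-0.04), from Cy5 alone (-0.10) or with scaled arrays (-0.16). A_73_P039921 passed with a limma adjusted p of 0.0396 after loess, passed in none of those 4 settings, and was higher in deer after median centring (0.04) and on lactation arrays alone (0.09). The brightest probe averaged -0.83 in dry deer, 0.15 in dry HF and -0.41 in dry PR. On lactation arrays it averaged -0.14 in deer, 0.07 in HF and -0.22 in PR, so deer lay between the breeds. A_73_P430131 was not well above background on any lactating deer array. Its Cy5 signal was at least 10.5-fold higher in lactating HF, and at least 8.43-fold higher in lactating PR, than in lactating deer.

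ORC5 read higher in deer at all 3 probes, in each scaling tried. A_73_P503093 averaged 1.12 ± 0.25 in deer and 0.01 ± 0.18 in cattle (SD, n = 4 and 8, limma adjusted p 7.93e-07). A_73_P193452 averaged 0.59 ± 0.21 in deer and 0.04 ± 0.08 in cattle (limma adjusted p 9.15e-05), and A_73_100642 averaged 0.34 ± 0.16 in deer and 0.12 ± 0.07 in cattle (limma adjusted p 0.00636). The difference at A_73_P503093 was 1.51 among dry animals and 0.70 among lactating ones.

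For MCM5, A_73_P048536 was higher in deer by 0.56 ± 0.08 (SE) and the signature motif probe by 0.41 ± 0.06, while the brightest probe differed by 0.03 ± 0.13 and did not pass. MCM6 differed by 0.16 ± 0.07 (limma adjusted p 0.0590), and passed by Agilent's log ratio (0.46), after median centring (0.45), from Cy5 alone (0.45) and with scaled arrays (0.21). MCM7 was lower in deer at A_73_P318881 by a difference of -0.20 ± 0.07 (limma adjusted p 0.0247), a call not made after median centring, from Cy5 alone or with scaled arrays. ORC1 differed by -0.06 (95% interval -0.19 to 0.08) and CDC6 by 0.06 (-0.07 to 0.18), and neither passed. Among all probes called, the share higher in deer was 47.2% after loess, 59.9% by Agilent's log ratio, 67.7% after median centring and 61.7% from Cy5 alone, and the median of all probes moved to 0.23, 0.18 and 0.12 in those last 3.

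**Figure D4:**
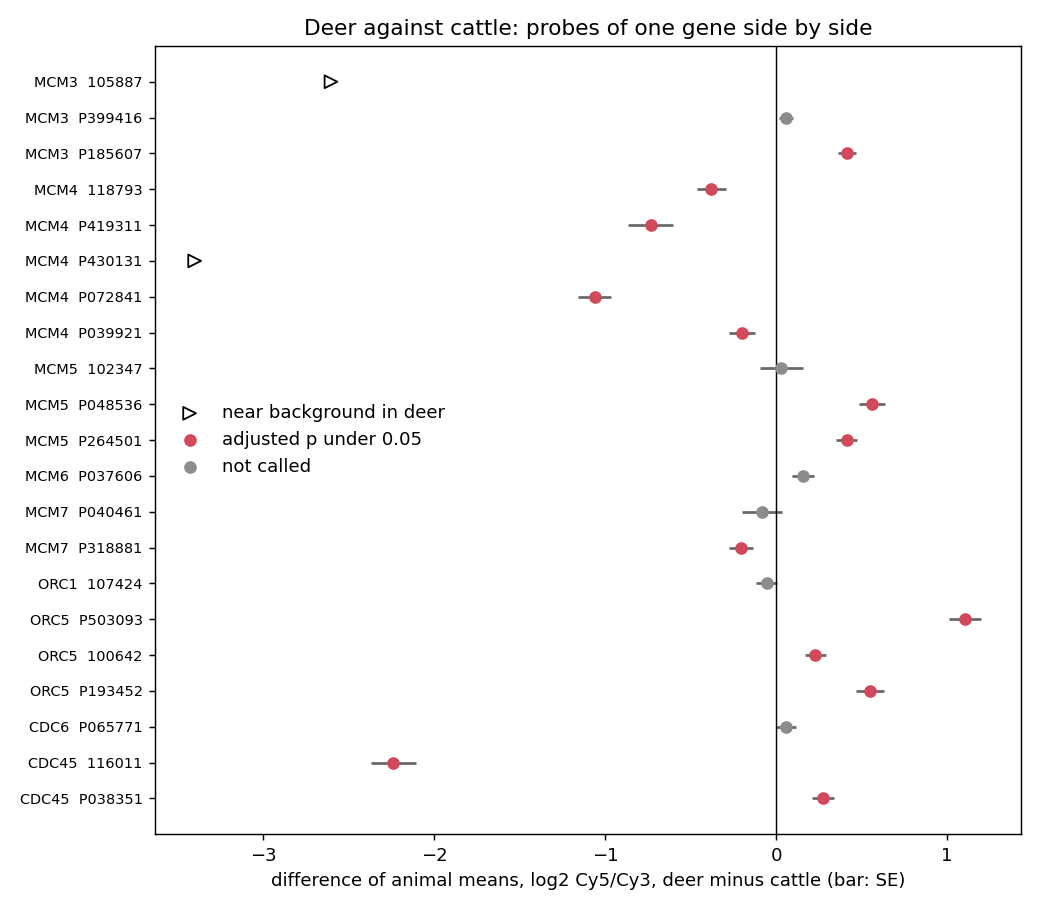
Difference of animal means (log2, deer minus cattle) with its SE for 21 member probes, grouped by gene; red points passed an adjusted p of 0.05, and open triangles, drawn without an SE, are 2 probes near background in deer. The filled CDC45 points lie on both sides of 0, the 4 filled MCM4 points below it and all 3 ORC5 points above it, after loess.

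Between the cattle breeds, limma called 2 of 21 member probes, near the background of 7.50%. They were 1 probe of MCM4 and the ORC1 probe, both higher in HF than in PR. MCM4 at A_73_118793 averaged 0.11 ± 0.13 in HF and -0.32 ± 0.14 in PR (SD, n = 4 each), with animals between -0.03 and 0.23 in HF and between -0.46 and -0.15 in PR. ORC1 averaged -0.05 ± 0.11 in HF and -0.32 ± 0.06 in PR, with animals between -0.18 and 0.05 in HF and between -0.38 and -0.25 in PR. Neither overlapped between breeds. The differences were 0.42 for MCM4 (limma adjusted p 0.0280) and 0.27 for ORC1 (limma adjusted p 0.0422). Of all probes, 4.75% were called higher in HF. The probes of MCM4 did not all show this. The arginine finger probe A_73_P072841 averaged 0.20 ± 0.17 in HF and 0.22 ± 0.23 in PR. The remaining MCM4 probes were higher in HF without being called.

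Neither breed call was firm. The number of member probes called was 0 from Cy5 alone (0.0986% of all probes called), 0 without HF animals 2 and 3 (0.00299%), 0 on dry arrays (0%) and 0 on lactation arrays (1.68%). It was 10 after median centring, where 27.8% of all probes were called, and 11 with scaled arrays, where 16.1% were. Leaving out HF animal 2 or HF animal 3 left 0 calls (1.54% and 2.32% of all probes called). Without PR animal 4 both calls ended and MCM5 A_73_P264501 alone was called, by a difference of 0.31 (limma adjusted p 0.0417). Of all probes, 2.89% were called there. Apart from 1 slide, the breeds were on separate slides and cannot be told apart from them. On the shared slide, MCM4 was -0.04 in lactation and 0.09 in the dry period in HF animal 4, against -0.28 in the dry period in PR animal 2. ORC1 there was -0.14 in lactation and -0.06 in the dry period in that HF animal, against -0.36 in that PR animal.

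Most member probes leaned the same way, most of them without passing. Of all 21 probes, with the 2 called among them, 18 were higher in HF (background 52.5%). Of these, 8 were higher without overlap (background 11%), and the median difference of the 21 was 0.19. At their brightest probes 7 of 9 genes were higher in HF, while MCM6 (-0.06) and ORC5 were lower. ORC5 at A_73_P503093 was the 1 probe lower in HF without overlap (background 6.61%), at -0.13 ± 0.07 in HF and 0.15 ± 0.12 in PR. CDC45 at A_73_116011 differed by 0.46 (limma adjusted p 0.0822) and MCM3 at A_73_105887 by 0.42 (limma adjusted p 0.187). Of 33 fork and nucleotide genes 29 were higher in HF and 6 were called, among them DNMT1, the maintenance DNA methyltransferase (0.67), TIPIN, a fork protection protein (0.77), CHAF1A, a histone chaperone subunit (0.39), and PCNA (0.54). TYMS had 0.58 and RRM2 0.46, with limma adjusted p of 0.0292 and 0.111. Of 14 mitosis markers TPX2, CCNB1 and NUSAP1 were called higher in HF, and of 20 other origin genes limma called 0, with 4 at an unadjusted p under 0.05. Of 17 G1/S regulators 4 were called higher and 1 lower in HF. The retinoblastoma gene RB1 (0.45), the CDK inhibitor CDKN1B (0.54) and cyclin A2, CCNA2 (0.37), were higher, and the retinoblastoma-like gene RBL1 (-0.42) was lower. The background of these list calls was 7.50% of all probes. They were not firm either. Without HF animals 2 and 3 only 1 of all 33480 probes was called. From Cy5 alone 0.0986% were called, and on dry arrays 0%. The 7 neutrophil marker genes were all higher in HF too (median 0.29, 0 called), as were 6 of 7 monocyte genes (median 0.39, 2 called). The same held for 6 of 7 B cell genes (median 0.15), 4 of 5 plasma cell genes (0.18) and 6 of 8 T cell genes (0.10). Fewer were higher among NK and cytotoxic genes (3 of 7), erythroid precursor genes (2 of 9) and platelet genes (1 of 5). The part of these cells in the differences was not tested.

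Over the 16 cattle arrays the brightest probes of the 5 MCM genes varied together to differing degrees. Their 10 pairs had Pearson correlations of 0.11 to 0.85 with a median of 0.44, and a median of 0.31 without the dry array of PR animal 1. The 36 pairs of all 9 genes had a median of 0.17, and of 0.26 without that array. The genes most like the mean of the MCM probes, among 12724 candidates, were POLR3D (0.92), NUDT21 (0.92), APIP (0.92), PARN (0.92) and METTL13 (0.92). Without that 1 array the same genes had correlations between 0.79 and 0.83 and ranks between 7 and 18. The arrays share animals, slides and the reference, and these values are a description.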

How the data were processed

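Blood RNA of 12 animals in 2 states was measured on 24 arrays. Per the file headers, each scanner file gives every spot's intensity and local background for both dyes. Per the file headers it also gives a log10 ratio of processed Cy5 over Cy3 signals. The authors' deposited tables hold normalized log2 values for probes that the design text says were picked by analysis of variance with Tukey's test; the steps of that normalization are not given in the sources used here. The file headers name Feature Extraction 10.10.1.1 and the submitters' processing notes 10.7.3.1.

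Mean intensities were corrected by normexp (offset 50). Loess was then applied to every array, with the 1417 control spots given no weight, and repeated spots were averaged, using limma 3.58.1 and statmod 1.5.0 in R 4.3.3 with the data.table package, version 1.17.8. Figures used matplotlib 3.10.9 and pandas 2.3.3. A probe was tested if Cy5 was marked as well above background on 3 or more of the 4 arrays in a group compared. State was fitted on 6 group means over all 24 arrays, with no animal term, as in the design text, and levels on 12 animal means. The number of arrays limits the precision. The code was tested on simulated data.

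The members and gene lists were chosen with earlier results of these data known. All member probes are named, and a gene is represented by its probe with the highest mean intensity. Of each list, at most 4 called genes, those with the smallest p, were named, PCNA, MKI67, TYMS and RRM2 always, and the 5 genes most like the MCM mean. The lists were not described between deer and cattle. The MCM3 probe A_73_114337, described in the files as another gene, was above background on 2 of 16 cattle arrays and 0 of 8 deer arrays and was not tested. The pairing of arrays comes from the series text, which says that each animal was bled in both states. After removal of group means, the correlation of an animal's arrays was over 0.1 in 4 of 4 deer, 4 of 4 HF and 2 of 4 PR.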

Additional observations from a re-analysis of the deposited data

Results flagged for a closer look

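In 7 of 126 groups of 4 arrays, 1 array stood far from the other 3 by Dixon's criterion, and chance gives about 1 in 20 groups. In dry HF, animal 1 had 0.31 at MCM4 A_73_P419311, against 0.12 to 0.15 on the other arrays, and -0.05 (-0.046) at MCM4 A_73_P072841, against 0.23 to 0.29. In dry PR, animal 3 had 0.17 at MCM6, animal 2 had -0.24 at ORC5 A_73_P503093 and animal 1 had 0.16 at ORC5 A_73_P193452. In lactating HF, animal 3 had 0.30 at CDC6, and in lactating PR, animal 2 had -0.53 at CDC45 A_73_P038351.

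At the brightest ORC5 probe all 4 deer were lower in lactation after loess, while all 4 HF and all 4 PR animals were higher. The deer effect minus the HF effect was -0.78, and the deer effect minus the PR effect was -0.84. Only this ORC5 probe read so, and at ORC5 A_73_100642 all 4 deer were higher in lactation. From Cy5 alone not every animal kept its direction at the brightest probe. With scaled arrays the deer difference there was smaller in size. At ORC1 all 4 deer were higher in lactation and all 4 PR animals lower, and the deer effect minus the PR effect was 0.31. These differences were not tested, and the members were chosen on the deer comparison.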

How the results depend on the processing

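In HF, PR, their mean and the difference of their effects, limma called 0 member probes under each alternative run (at most 0.194% of all probes). That includes the replicate block, with the animal as a block. Over all probes the block gave 43 calls for the mean of both breeds, against 1, and 2 in HF, against 3. Deer against cattle and HF against PR use 1 mean per animal and take no block. Between deer and cattle the count was 12 to 16, with 49.2% to 73.1% of all probes called, against 15 with 61.5%. Over all member probes and settings, MCM7 A_73_P040461 and MCM4 A_73_P039921 changed sign while called in either setting. MCM7, -0.08 after loess, was 0.35 after median centring (limma adjusted p 0.0484). MCM4, -0.20 after loess, was 0.04 after median centring and 0.09 on lactation arrays. Between HF and PR the count of 2 (7.5% of all probes called) became 10 after median centring (27.8%), 0 from Cy5 alone (0.0986%), 11 with scaled arrays (16.1%), 1 with no filter on dim probes (4.14%), 3 by Agilent's log ratio (4.18%) and 8 with array weights (16.8%). It was 0 on dry arrays (0%), 0 on lactation arrays (1.68%), 0 without HF animals 2 and 3 (0.00299%), 7 without the dry array of PR animal 1 (9.44%) and 7 by Tukey's comparison, unadjusted across probes (15%). It ran from 0 to 4 when each animal was left out (1.54% to 8.97%). Of all probes called there, the share higher in HF was 63.3%, against 77.7% after median centring and 24.2% from Cy5 alone. In deer the MCM4 difference of 0.69 was 0.42 with scaled arrays and 0.35 within 1 slide, and 0.61 to 0.79 when each array was left out. The ORC5 difference of -0.63 was -0.11 with scaled arrays, and -0.80 to -0.48 when each array was left out. The cause was not tested. Tukey's comparison was not run for the cattle mean, the difference of effects or deer against cattle, which are not pairs of groups. Probes near background limit MCM3 and MCM4 in deer most.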

Other observations

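MCM2, a helicase subunit with no probe under its own name, is the description of 3 other probes. Its brightest, A_73_P063916 at chr22:60565536-60565595, averaged -0.97 ± 0.25 in deer and -0.23 ± 0.18 in cattle (SD, n = 4 and 8). At A_73_P421121 the means were -0.02 ± 0.05 in deer and -0.00 ± 0.09 in cattle, and at A_73_P257706 they were -0.10 ± 0.11 in deer and -0.02 ± 0.08 in cattle. The MCM2 probes were chosen after the files were seen, and no call is drawn from them. In lactating HF A_73_P063916 gave -0.15, -0.15, 0.25 and -0.16, against -0.19, -0.20, -0.18 and -0.25 in dry HF.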
